A study of Mus musculus with 6 samples.

Results

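The arrestin family was followed in macrophages grown from mouse bone marrow and treated with resolvin D1 (RvD1). The 7 genes, taken by symbol from a deposited table of 38087 genes, were the alpha-arrestins Arrdc1, Arrdc2, Arrdc3, Arrdc4 and Txnip and the beta-arrestins Arrb1 and Arrb2. Each symbol matched 1 row, and 7 of 7 were among the 18899 genes tested. The family was selected on the rise of Arrdc3 between the 2 groups of these same libraries, so the values of Arrdc3 are given as a description and not as a test. The cells came from the marrow of male C57BL/6J mice, described once as 8 to 10 weeks and once as 2 to 4 months old. They were cultured for 7 days with macrophage colony-stimulating factor and then without it before treatment. Of the 6 libraries, 3 came from cells given 10 nM RvD1 for 6 h and 3 from untreated cells, for which no vehicle is described. RvD1 is a lipid made from docosahexaenoic acid that signals through ALX/FPR2, a G protein-coupled receptor, and the wider study asked about that receptor on myeloid cells in limb ischemia.

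Arrestins share a fold of paired beta-sandwich domains and act as adaptors for membrane proteins. Beta-arrestins bind activated G protein-coupled receptors that have been phosphorylated by receptor kinases, end G protein signalling and lead the receptors to clathrin-coated pits. Alpha-arrestins carry proline-rich motifs in their tails that recruit ubiquitin ligases of the NEDD4 family to receptors, transporters and endosomes. Txnip also binds thioredoxin and, with Arrdc4, restrains glucose uptake. Both are classical targets of the glucose-sensing factor MondoA and its partner Mlx, which bind carbohydrate response elements in their promoters.

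The bases before the annotated starts of 3 alpha-arrestins are shown because Txnip and Arrdc4 are the members with a known shared promoter control and Arrdc3 is the member with the largest change. Each run is the 250 bases upstream of the start, in RefSeq on GRCm38.p6, 5′ to 3′ on the gene's strand. The windows are chr3:96557707-96557956 on the plus strand for Txnip, chr7:68749239-68749488 on the minus strand for Arrdc4, and chr13:80883134-80883383 on the plus strand for Arrdc3. Capitals mark matches on either strand to the form of a carbohydrate response element (CACGNG, repeated after 5 bases of any kind), CACGTG (an E-box), GTAAACA (bound by FOXO factors) and CCAAT (bound by NF-Y).
Txnip: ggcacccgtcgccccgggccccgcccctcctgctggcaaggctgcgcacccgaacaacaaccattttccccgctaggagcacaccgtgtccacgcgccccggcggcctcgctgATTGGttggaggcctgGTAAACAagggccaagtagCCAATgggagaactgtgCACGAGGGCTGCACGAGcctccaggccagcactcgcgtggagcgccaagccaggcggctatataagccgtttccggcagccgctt
Arrdc4: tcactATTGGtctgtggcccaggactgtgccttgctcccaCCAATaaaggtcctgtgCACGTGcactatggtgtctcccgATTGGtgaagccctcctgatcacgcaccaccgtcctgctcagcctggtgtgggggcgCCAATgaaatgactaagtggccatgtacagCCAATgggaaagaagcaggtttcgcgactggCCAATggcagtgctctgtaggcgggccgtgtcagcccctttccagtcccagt
Arrdc3: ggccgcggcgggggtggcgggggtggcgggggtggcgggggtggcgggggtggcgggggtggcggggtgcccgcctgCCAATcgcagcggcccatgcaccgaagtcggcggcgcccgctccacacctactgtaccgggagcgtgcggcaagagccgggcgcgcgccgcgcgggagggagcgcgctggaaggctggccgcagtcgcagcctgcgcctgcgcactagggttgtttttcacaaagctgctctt

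In Txnip the capitals 85 to 69 bases before the start were a full match to the carbohydrate response element form, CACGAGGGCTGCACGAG. That form stood in 15 of 32851 upstream windows of the same length (0.0457%). Its motif was written with the Txnip window in view. The Arrdc4 window held an E-box, 193 to 188 bases before the start, and no match to the full form. E-boxes stood in 6.02% of windows. Txnip also had a FOXO motif 121 to 115 bases before its start (3.17% of windows) and a match to the glucocorticoid response element form, an inverted repeat, at 172 to 160 bases (0.387% of windows). CCAAT was matched 2 times in Txnip, 6 times in Arrdc4 and 1 time in Arrdc3, and stood in 33.8% of windows. In the Arrdc3 window neither the carbohydrate response element form, the E-box, the FOXO motif nor the glucocorticoid form was found. RefSeq lists 3 starts for Arrdc3, and the other two windows held none of these 4 either. Windows were found for 5 of the 7 genes, Arrb1 and Arrb2 being the ones without. A match describes these letters and shows no binding.

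**Figure D1:**
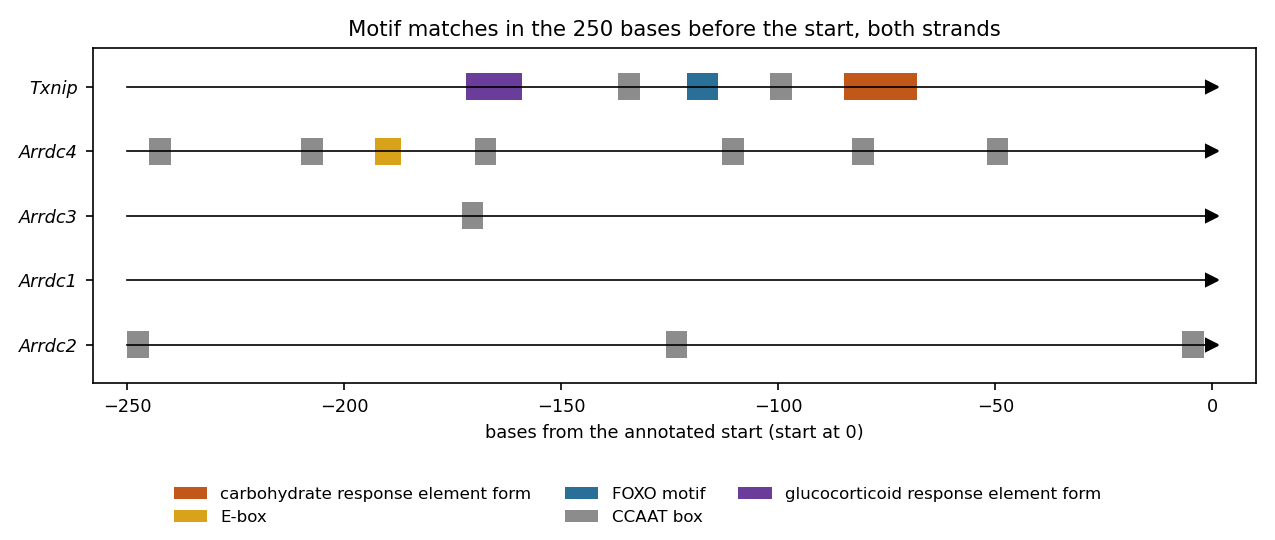
Matches to 5 motifs on either strand in the 250 bases before the annotated start of 5 alpha-arrestins, with the horizontal axis in bases from the start and an arrow at the start. Txnip has the only carbohydrate response element form, 85 to 69 bases before its start, and Arrdc4 the only E-box.

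Values are log2 normalized read numbers, and differences between groups are log2 fold changes. Arrdc3, which recruits NEDD4-family ligases to the beta-adrenergic receptor and other cargo, stood at 8.25, 8.77 and 8.51 in untreated replicates 1, 2 and 3. It stood at 9.30, 9.69 and 9.75 in RvD1 replicates 1, 2 and 3. The lowest RvD1 library lay 0.53 above the highest untreated library, so the groups did not overlap. Group means were 8.51 ± 0.26 without and 9.58 ± 0.25 with RvD1 (SD, n = 3), a log2 fold change of 1.07 (SE 0.15) and a 2.10-fold rise (95% interval 1.65 to 2.67). From the value of 1 read in each library, these levels rest on an estimated 249 to 863 reads. In bulk RNA such as this, a change in the number of cells of a type and a change in RNA per cell cannot be told apart. Arrdc3 lies on chromosome 13 (80883384 to 80896042, plus strand, 8 exons in its longest transcript, GENCODE M21 on mm10), and 1700023H06Rik, which overlaps it, was listed at 0 in every library. It was the 190th highest fold change of 18899. Its longest transcript had a GC content of 40.6%, below that of all but 7.54% of the tested genes. With each library corrected for the length and GC content of transcripts, the log2 fold change of Arrdc3 was 0.89 (95% interval 0.55 to 1.24), and Arrdc3 was then no longer among the genes called. The call also ended without untreated replicate 1, 2 or 3 and without RvD1 replicate 2 or 3, while the log2 fold change stayed between 0.94 and 1.21 with each of the 6 libraries left out.

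With RvD1, 1 of the 7 members passed the test as higher and 0 as lower (limma, Benjamini-Hochberg adjusted over all genes), beside 0.561% of all tested genes higher, 0.556% lower and 1.12% in either direction. That 1 member is the gene that led to the choice of the family. The groups did not overlap in 4 of 7 members, 2 higher and 2 lower, beside 25.4% of all tested genes. These 4 include Arrdc3, whose rise chose the family, and Arrdc4 and Arrdc1, whose groups were apart by only 0.0088 and 0.015. The count is thus no result about the family. The median log2 fold change of the members was -0.00, beside 0.00 for all tested genes. Of the 7 values 3 were positive and 4 negative.

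**Figure D2:**
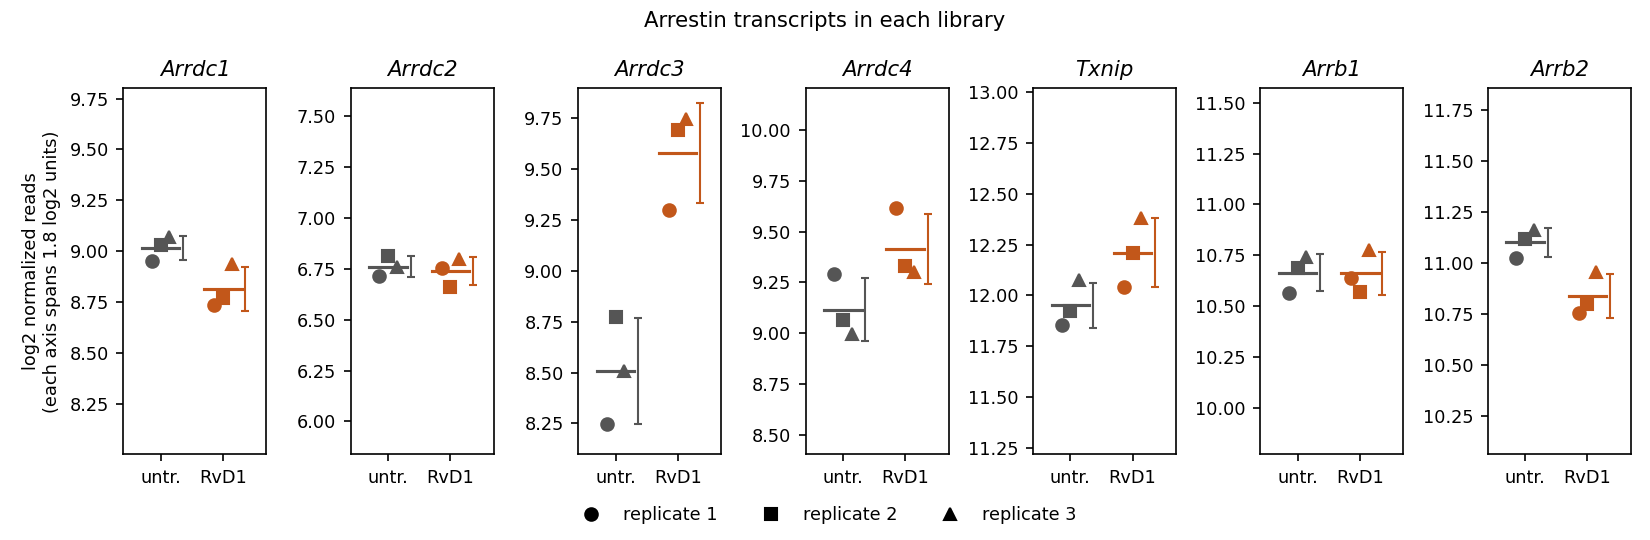
Log2 normalized reads of the 7 arrestins in each library, by group on the horizontal axis, with the mean (line) and SD (bar) and 1 symbol shape per replicate number. Each vertical axis spans the same range of log2 units, so the step of Arrdc3 from 8.51 to 9.58 can be compared with the smaller differences of the others.

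Among the other alpha-arrestins, Txnip and Arrdc4 had higher means with RvD1 that did not pass the test. Txnip was the member with the most reads, an estimated 3040 to 5522. It stood at 11.86, 11.92 and 12.07 in untreated replicates 1, 2 and 3, and at 12.04, 12.21 and 12.38 in their RvD1 counterparts. RvD1 replicate 1 lay below untreated replicate 3, so the groups overlapped. The log2 fold change was 0.26 (95% interval 0.05 to 0.47; limma adjusted p = 0.173). Txnip lies on chromosome 3 (96557957 to 96561883, plus strand). The antisense gene Gm15441 overlaps it, and the kit named in the labels is not described as keeping the strand, so reads of both cannot be told apart there. Gm15441 stood at 6.45, 6.65 and 6.71 in untreated and 6.58, 6.87 and 7.07 in RvD1 libraries, far below Txnip (log2 fold change 0.24, SE 0.15).

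Arrdc4 stood at 9.29, 9.06 and 8.996 in untreated and at 9.61, 9.33 and 9.30 in RvD1 libraries, in the order of their numbers. The groups were apart, but by only 0.0088, and replicate 1 was the highest library in both groups. The log2 fold change was 0.30 (95% interval 0.06 to 0.54; limma adjusted p = 0.173), from an estimated 362 to 1025 reads. Arrdc4 lies on chromosome 7 (68736995 to 68749241, minus strand). The carbohydrate response element form and the E-box of the sequences above belong to Txnip and Arrdc4. Their log2 fold changes of 0.26 and 0.30 did not pass in the main fit. Corrected for length and GC content these were 0.23 and 0.24. With replicate numbers as a block both genes passed (limma adjusted p = 0.0113 and 0.0178), also with the correction added (adjusted p = 0.0143 and 0.0368). Any part of the motifs in these values was not tested. Across the 6 libraries Pearson's r of Txnip with Arrdc4 was 0.16. Both had higher means with RvD1, but within each group, in the order of replicate numbers, Txnip went up and Arrdc4 went down. The Txnip to Arrdc4 ratio per kilobase averaged 9.85 in untreated libraries against 9.59 with RvD1, with SDs of 0.26 and 0.33 on the log2 scale.

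Arrdc1, which helps bud vesicles from the plasma membrane, was lower with RvD1 without passing. It stood at 8.95, 9.03 and 9.07 in untreated and at 8.73, 8.77 and 8.94 in RvD1 libraries. The groups were apart by 0.015. The log2 fold change was -0.20 (95% interval -0.37 to -0.03; limma adjusted p = 0.185), and -0.03 (-0.19 to 0.13) once corrected for length and GC content. Its GC content of 58.6% was above that of 92.6% of tested genes. Arrdc1 lies on chromosome 2 (24925352 to 24935252, minus strand).

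Arrdc2 was the least abundant member, with an estimated 76.7 to 141 reads. It stood at 6.71, 6.81 and 6.76 in untreated and at 6.75, 6.66 and 6.80 in RvD1 libraries, and the groups overlapped. The log2 fold change was -0.02 (95% interval -0.26 to 0.21; limma adjusted p = 0.923). Corrected for length and GC content it was 0.15 (-0.07 to 0.37), with the sign turned and the interval still holding 0. Arrdc2 lies on chromosome 8 (70835129 to 70839720, minus strand), with the highest GC content of the family, 59.4%.

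Of the beta-arrestins, Arrb2 had a lower mean with RvD1 and Arrb1 a nearly equal one. Arrb2 was lower in every RvD1 library than in any untreated library. It stood at 11.03, 11.12 and 11.16 in untreated and at 10.76, 10.80 and 10.96 in RvD1 libraries. The log2 fold change was -0.26 (95% interval -0.42 to -0.11), 0.833 of the untreated level, and did not pass (limma adjusted p = 0.0913). The corrected value was -0.14 (-0.28 to 0.01). With replicate numbers as a block Arrb2 passed (limma adjusted p = 0.0134), but not with the correction added (adjusted p = 0.0842). Arrb2 lies on chromosome 11 (70432635 to 70440828, plus strand).

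Arrb1 stood at 10.56, 10.69 and 10.74 in untreated and at 10.64, 10.57 and 10.78 in RvD1 libraries. The groups overlapped, and the log2 fold change was -0.00 (95% interval -0.17 to 0.16; limma adjusted p = 0.988). Arrb1 lies on chromosome 7 (99535466 to 99606771, plus strand). Within each library the log2 ratio of Arrb1 to Arrb2 per kilobase came to -2.41, -2.38 and -2.37 in untreated against -2.07, -2.18 and -2.13 in RvD1 libraries. The ratio was thus higher in every RvD1 library, 0.191 against 0.229 in group means. It was not tested, since it was formed after the values of both genes were seen. It also uses values not corrected for length and GC content. Once corrected, the log2 fold changes were -0.01 for Arrb1 and -0.14 for Arrb2.

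**Figure D3:**
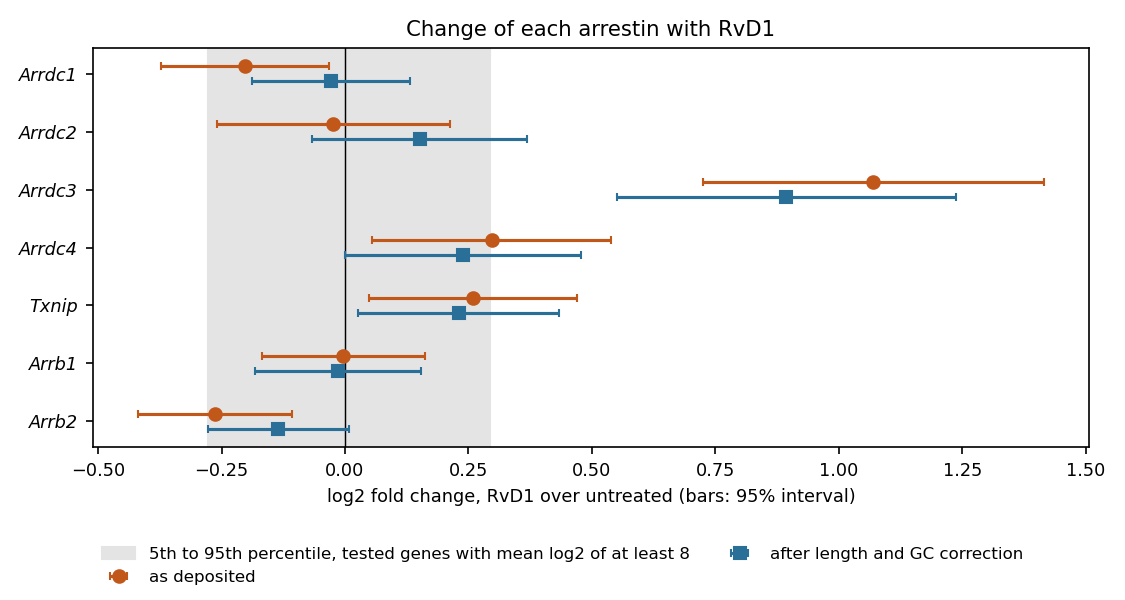
Log2 fold change of each arrestin, RvD1 over untreated, with 95% intervals, as deposited (circles) and after correction for transcript length and GC content (squares), over the 5th to 95th percentile of tested genes whose log2 values averaged 8 or more. Arrdc3 stands at 1.07 and 0.89 outside the band, while Arrdc1 goes from -0.20 to -0.03 and Arrb2 from -0.26 to -0.14.

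Levels of different genes were compared per kilobase of each gene's longest annotated transcript, which runs from 1666 bases in Arrdc1 to 7135 in Arrb1. In untreated libraries the order was Txnip (10.45 on the log2 scale per kilobase), Arrb2 (10.22), Arrdc1 (8.28), Arrb1 (7.83), Arrdc4 (7.15), Arrdc3 (6.46) and Arrdc2 (5.53). No neighbours in that order overlapped in their 3 values. With RvD1, Arrdc3 reached 7.53 and Arrdc4 7.45 per kilobase, and these 2 overlapped. Arrdc3 thus moved from below Arrdc4 to the same range. Of the summed arrestin level per kilobase, Txnip made up 41.1% ± 1.2 in untreated and 46.9% ± 1.6 in RvD1 libraries (SD, n = 3). Arrb2 made up 34.9% ± 0.36 and 27.7% ± 0.50, and Arrdc3 2.61% ± 0.43 and 5.20% ± 0.55. A share falls when another member's level rises, so these are not independent of each other. The summed alpha-arrestins exceeded the beta-arrestins 1.40-fold in untreated and 1.93-fold in RvD1 libraries, with log2 ratios of 0.46 to 0.51 and 0.89 to 0.99. The values behind these shares and ratios were not put through the length and GC correction.

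**Figure D4:**
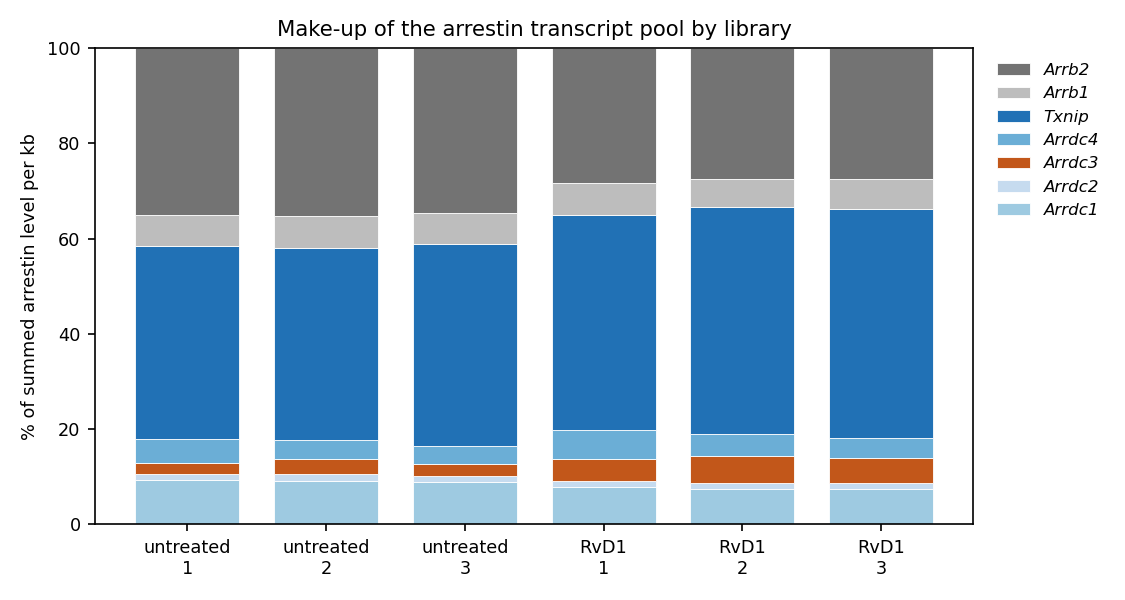
Stacked share of each arrestin in the summed level per kilobase (vertical axis, percent) in the 6 libraries (horizontal axis). Txnip and Arrb2 fill most of every bar, and the Arrdc3 band widens from 2.61% to 5.20% in group means.

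The genes whose values followed Arrdc3 most closely over the 6 libraries, among 10944 named genes with a mean log2 value of 5 or more, were Peli2, Mtf1, Gorab, Lyst and Sbf2 (Pearson's r = 0.998, 0.998, 0.998, 0.997 and 0.993). Each was higher in every RvD1 library than in any untreated one, which so close a likeness to Arrdc3 requires. Their log2 fold changes were 0.20, 0.15, 0.13, 0.85 and 0.18, of which Lyst, a regulator of lysosome size, has one near that of Arrdc3. For Txnip the closest were Tsc22d3, Gpr34, Lacc1, Ifngr1 and Fam134c (r = 0.999, 0.995, 0.995, 0.994 and 0.993). Tsc22d3, which encodes the glucocorticoid-induced leucine zipper, stood at 8.81, 8.90 and 9.03 in untreated and 9.02, 9.19 and 9.36 in RvD1 libraries. These r rest on 6 points from 2 groups and were not tested. At the looser cut of r over 0.95 there were 206 of the 10944 genes with Arrdc3 and 122 with Txnip. Among the members, Arrdc1 and Arrb2 followed each other most closely (r = 0.99), and Arrdc3 had r = 0.85 with Txnip. All these correlations use values not corrected for length and GC content. With that correction the log2 fold changes went from -0.20 to -0.03 in Arrdc1 and from -0.26 to -0.14 in Arrb2.

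Related genes were counted by list, at the adjusted threshold and at an unadjusted p under 0.05. Over all tested genes the latter was met by 10.3% as higher and 9.65% as lower, 19.9% together, and by 12.3% once corrected for length and GC content, so list counts near those shares are no result about a list. The remaining arrestin-fold genes gave no call. Arrdc5 and the cone arrestin Arr3 were listed at 0 in all 6 libraries. Of the 5 tested, 0 passed in limma (0 at an unadjusted p under 0.05), and the median log2 fold change was 0.08. The smallest p-values belonged to Vps26a (0.08, SE 0.06), a subunit of the retromer that sorts cargo from endosomes, and Dscr3 (0.08, SE 0.09), its counterpart in the retriever complex.

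The NEDD4-family ligases and their adaptors, the partners of alpha-arrestins, gave 0 calls among 11 tested in limma (3 higher and 0 lower with an unadjusted p under 0.05). The unadjusted count fell to 0 of 11 once corrected for length and GC content. Their median log2 fold change was 0.14, and 10 of 11 values were positive. The ligase Itch stood at a log2 fold change of 0.20 ± 0.06 (SE), with a limma adjusted p = 0.106 and the adaptor Ndfip1 at 0.15 ± 0.06 (SE), with an adjusted p = 0.185.

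Of 6 G protein-coupled receptor kinases, which mark receptors for beta-arrestins, 0 passed in limma (0 higher and 1 lower with an unadjusted p under 0.05; median -0.07). Grk6 stood at a log2 fold change of -0.15 ± 0.06 (SE), with a limma adjusted p = 0.228. Grk1, the rhodopsin kinase, was near the floor with means of 0.93 and 0.39.

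Clathrin, its AP-2 adaptor and endosomal sorting genes gave 0 calls among 20 in limma, where an unadjusted p under 0.05 was met by 6 higher and 5 lower genes and the median was 0.04. The 11 genes of 20 at that level became 2 of 20 once corrected for length and GC content. The smallest p-values went in opposite directions. Picalm, a clathrin assembly protein, stood at a log2 fold change of 0.37 ± 0.08 (SE), with a limma adjusted p = 0.0688 and Hgs, which sorts ubiquitinated cargo, at -0.24 ± 0.05 (SE), with an adjusted p = 0.0757.

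Among 13 tested cargoes and receptors, 1 rose and 12 did not pass in limma (2 higher and 2 lower with an unadjusted p under 0.05, Slc2a1 included; median 0.24). Slc2a1, the glucose transporter that Txnip removes from the surface, stood at 10.48 ± 0.11 in untreated and 10.87 ± 0.08 in RvD1 libraries (SD, n = 3). It rose by 0.39 ± 0.07 (SE) on the log2 scale, with a limma adjusted p = 0.0478. It was past the threshold in 7 of 17 alternatives, and the call ended with each of the 6 libraries left out (limma adjusted p between 0.0563 and 0.166). Corrected for length and GC content, its log2 fold change was 0.46 ± 0.06 (SE) and passed (limma adjusted p = 0.0417). Fpr2, the RvD1 receptor, stood at a log2 fold change of 0.02 ± 0.34 (SE), with a limma adjusted p = 0.984, and Adrb1 was not tested.

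Regulators and partners of Txnip and Arrdc4 gave 0 calls among 10 tested in limma (3 higher and 2 lower with an unadjusted p under 0.05; median 0.05). The AMP-activated kinase subunit Prkaa2 stood at a log2 fold change of 0.45 ± 0.14 (SE), with a limma adjusted p = 0.140 and the thioredoxin Txn1 at -0.16 ± 0.05 (SE), with an adjusted p = 0.145. Of the 8 glucocorticoid-inducible genes 0 passed (2 higher and 0 lower with an unadjusted p under 0.05; median 0.00), with Sgk1 at 0.29 (SE 0.09) and Tsc22d3 at 0.27 (SE 0.10; limma adjusted p = 0.125 and 0.173). Of the 11 FOXO factors and FOXO-inducible genes 0 passed (3 higher and 0 lower with an unadjusted p under 0.05; median 0.16). The cyclin Ccng2 stood at a log2 fold change of 0.47 ± 0.09 (SE), with a limma adjusted p = 0.0519 and Foxo4 at 0.20 ± 0.08 (SE), with an adjusted p = 0.203. In this list 1 gene passed with the stricter filter, with the robust variance and without RvD1 replicate 1. Once corrected for length and GC content, 4 of 10 regulators and partners had an unadjusted p under 0.05 in limma, beside 12.3% of all genes. So had 2 of 8 glucocorticoid-inducible genes, 2 of 11 FOXO genes, 2 of 13 cargoes and receptors and 0 of 6 receptor kinases. Of the 7 members, Arrdc3 included, 5 met it before correction (19.9% of all tested genes) and 2 after it.

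**Figure D5:**
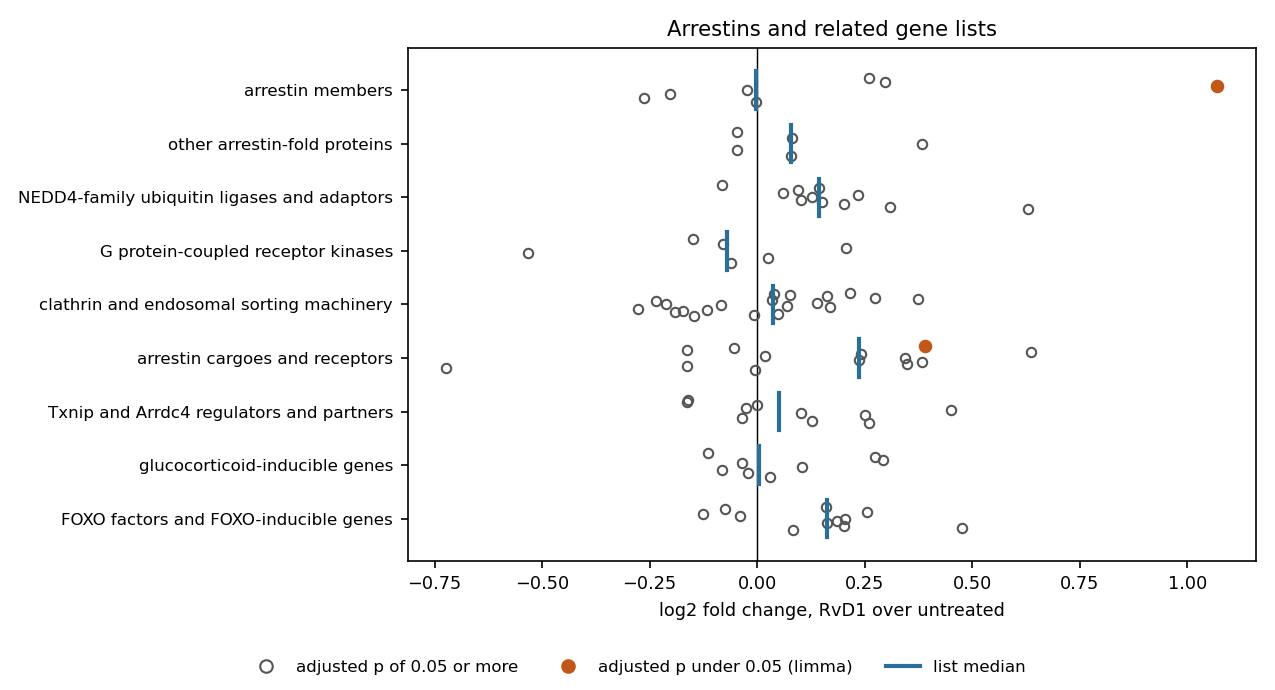
Log2 fold change (horizontal axis) of each tested gene in the arrestin family and 8 related lists (rows), with filled points for genes past the limma test and a line at each list's median. Arrdc3 at 1.07 and Slc2a1 at 0.39 are the 2 filled points, and Arrdc3 is the gene that led to the choice of the family.

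Estimated depth was 9.05 to 14.3 M reads in untreated and 11.2 to 16.3 M in RvD1 libraries. Macrophage markers were high in every library: the summed level of 8 genes was 16.6 to 17.0 in untreated and 16.6 to 17.0 in RvD1 libraries (log2), and 0 of 8 passed in limma. Genes of other cells were present too. The 5 fibroblast and stromal markers summed to 15.1 to 15.3 in untreated and 14.9 to 15.4 in RvD1 libraries, and the 7 neutrophil and precursor markers to 11.7 to 13.5 and 12.0 to 13.4. Col1a1 and Col1a2 carried most of the fibroblast sum, with untreated means of 14.2 and 14.1. Pdgfra stood at 8.89, Dcn at 4.97 and Lum at 0.10, near the floor. In the neutrophil list untreated means ran from 1.26 for Ly6g to 11.2 for S100a9. The 3 endothelial markers summed to 8.32 to 9.04 and 8.69 to 10.2, and the 4 mast cell and basophil markers to 6.32 to 6.78 and 6.60 to 7.57. The log2 fold change was positive for 3 of 3 endothelial, 4 of 4 mast cell and basophil, 6 of 7 neutrophil and precursor, 7 of 8 macrophage and 4 of 5 fibroblast and stromal markers, and for 1 of 4 tested dendritic cell markers. An unadjusted p under 0.05 was met, as higher, by 1 macrophage, 1 neutrophil and 1 endothelial marker. The 5 dendritic cell markers summed to 5.79 to 6.14 and 5.88 to 6.20. The summed levels of lymphocyte and erythroid markers stayed at or below 2.82, with Cd3e, Ms4a1 and Hbb-b1 listed at 0 throughout. A gene listed at 0 adds 1 to the antilog sum, so much of these sums is the floor. Cd79a, the tested lymphocyte marker, had means of 0.82 in untreated and 0.20 in RvD1 libraries. None of these markers passed the test, and their part in the values of Arrdc3 and the other members was not tested.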

How the data were processed

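Poly-A selected RNA of 6 libraries was sequenced on an Illumina HiSeq instrument, per the labels' protocols. TopHat2 2.0.7 and mm10 stand in the submitters' processing notes, and how reads were counted and normalized is not given in the sources used here. Per the file headers the deposited values are normalized. They were read as log2 normalized reads because none fell under 0, the maximum was 17.4, and their antilogs gave totals of 12.4 to 12.8 M a library. In each library 49.6% to 51.6% of genes were listed at 0, the floor. Depth came from the gap between the commonest low values, the worth of 1 read. As 40.8% to 51.5% of values worth up to 20 reads came within 0.02 of whole numbers, count tests were not applied.

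limma 3.58.1 (R 4.3.3, limma-trend, two-sided, Benjamini-Hochberg threshold 0.05) was fitted to 18899 genes above 0 in at least 3 libraries, with treatment as the only term. Intervals are 95%, from that fit. Replicates are not described as separate cultures or mice, so p-values may reflect technical spread. The length and GC correction removed splines with 4 degrees of freedom in each, using GENCODE M21 transcripts. The fit was tested on simulated data. Named genes were the 7 members, each list's genes past the test (otherwise its 2 smallest p-values), Fpr2, and the 5 genes most correlated with Arrdc3 and with Txnip. The overlapping Gm15441 was added after values were seen, as were genes named at 0. Members, lists and motifs were chosen with earlier results of these data known. Alternatives covered filters, added constants, scaling, variance models, a block and left-out libraries. Python 3.11.15, pandas 2.3.3 and matplotlib 3.10.9 were also used.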

Additional observations from a re-analysis of the deposited data

How the results depend on the processing

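Arrdc3, Arrdc1, Arrdc4, Txnip and Arrb2 kept their signs under all 17 alternatives. Arrdc3, chosen for its rise in these libraries, stayed past the threshold in 9 of 17, which is a description and no support. It missed it with 5 of the 6 single libraries left out (0.94 to 1.21 over the 6). It also missed it without a filter (1.07), without a trend of the variance (1.07) and with the length and GC correction (0.89). Arrdc2 turned to 0.15 with that correction, alone or blocked, and ranged from -0.054 to 0.014 with 1 library left out, being 0.014 without RvD1 replicate 2 and 0.0025 without untreated replicate 2. Arrb1 ranged from -0.061 to 0.043, being 0.0089 without RvD1 replicate 1, 0.0078 without untreated replicate 2, 0.043 without RvD1 replicate 2 and 0.036 without untreated replicate 3. The Slc2a1 call ended in 10 of 17 alternatives: with each single library left out, without a filter (limma adjusted p = 0.0737), with 5 added to the antilog (0.0516), with quantile normalization (0.0554) and without a trend of the variance (0.209). Of the clathrin and sorting genes 1 passed with quantile normalization and 1 without RvD1 replicate 1. The cause of these changes was not tested.

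Calls over all genes (106 higher, 105 lower, 211 in all) were 5, 7 and 12 without a filter, 1, 0 and 1 without a trend of the variance, and 17, 23 and 40 with the length and GC correction, of which 33 were shared. With 1 library left out they ranged from 0 to 239, 0 to 212 and 0 to 451, highest without RvD1 replicate 1 and 0 without RvD1 replicate 2 or 3 or untreated replicate 3, where fewer samples were fitted; unadjusted p under 0.05 was met by 2623 to 4123 genes.

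Replicate numbers are shared between groups. Deviations of same-numbered libraries correlated at 0.30, -0.08 and 0.42 for numbers 1, 2 and 3. Between numbers 1 and 3 they correlated at -0.39 and -0.38, so libraries 1 and 3 varied alike by number across the groups. Replicate 2 did not correlate best with its own number, and the numbers were not taken as pairs in the main fit. Whether Txnip, Arrdc4 and Arrb2 passed depended on that choice. A replicate block gave 1049, 847 and 1896 calls (332, 443 and 775 with the correction added). Under it Arrdc4 at 0.30 (limma adjusted p = 0.0178), Txnip at 0.26 (adjusted p = 0.0113) and Arrb2 at -0.26 (adjusted p = 0.0134) passed; with the correction Arrdc4 at 0.24 and Txnip at 0.23 passed. With the block, beside 1896 of all 18899 genes, 8 of 20 clathrin and sorting genes passed, 4 of 13 cargoes and 2 of 8 glucocorticoid-inducible genes. The NEDD4-family (11 tested), Txnip and Arrdc4 regulator (10 tested) and FOXO (11 tested) lists gave 1 each. With the correction added, beside 775 of 18549 genes, these lists gave 3, 3 and 2, then 0, 2 and 1, in the same order. Arrdc2 rests on the fewest reads of the members, an estimated 76.7 to 141.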
